A study of Mus musculus with 42 samples.

Results

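The genes described here are 9 regulators and receptors of the primitive endoderm: the transcription factor genes Gata6, Gata4, Sox17, Sox7, Foxa2, Hnf4a and Hhex, the growth factor receptor gene Pdgfra and the endocytic adaptor gene Dab2. They were chosen by name for their known roles. All 9 were found among the 24083 genes of a table of stages and tissues and among the 23986 genes of a table of control and mutant morulae. For each gene the level was the sum of the maternal and paternal FPKM (fragments scaled to transcript length and library size), and the paternal share was computed at a total of 1 FPKM or more.

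Expression had been measured by Smart-seq2, a full-length method for very small RNA inputs that captures polyadenylated RNA, in mouse embryos of the strain combination C57BL/6N X PWK/PhJ. The stage table held wild type female samples. Before implantation these were 3 samples of 8-cell embryos, 3 of morulae and, from the E3.5 blastocyst, 2 of inner cell mass and 3 of trophectoderm. After implantation there were, at E6.5, 3 samples of visceral endoderm, 2 of extraembryonic ectoderm and 1 of epiblast, and 1 of yolk sac at E9.5. The morula table held control males (4), control females (3) and females of the genotype Xp XRRa KO (4), in which the XRRa region of the paternal X is deleted, of the same strain combination. The study asked how the inactive X chromosome is set up, and the 9 genes, all autosomal, enter here as lineage genes. The authors had pooled the samples of each group into 1 column per allele, so no spread between samples could be computed and no difference was tested.

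The primitive endoderm is the second lineage to leave the inner cell mass of the blastocyst. FGF signals from the neighbouring future epiblast cells act on receptors of the ERK pathway, and cells that keep Gata6 and lose the pluripotency factors go on to express Pdgfra, Sox17, Gata4 and Sox7 in that order. Their descendants form the visceral endoderm, an absorptive epithelium that feeds and patterns the E6.5 embryo, the parietal endoderm and the inner lining of the yolk sac. Foxa2, Hnf4a and Hhex belong to this later epithelium: Foxa2 and Hhex act in its patterning at the anterior side, and Hnf4a drives its liver-like secretory programme. Dab2 links cargo receptors such as megalin and cubilin to clathrin and is needed for uptake at the apical surface.

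Because GATA factors open this programme, promoters of the 9 genes were searched for their sites. RefSeq windows of the 250 bases before a transcription start (GRCm38.p6) were at hand for 5 of the 9 genes, 9 windows in all. A GATA site (AGATAA or AGATAG, or else TGATAA or TGATAG, on either strand) lay in 3 of the 9 windows (33.3%), against 26.5% of the 32851 windows of all genes, so the share was near the background. The forkhead site TGTTTAC and the Sox site ACAATGG were in none of the 9 windows, against 3.17% and 3.02% of all windows. The windows of Hhex and Pdgfra and the other windows of Foxa2, Hnf4a and Dab2 held no GATA match. The 3 windows with a match, from Foxa2, Hnf4a and Dab2, are shown. They are written 5′ to 3′ along the gene's strand, with the match in capitals, and end before annotated exon bases or at the end of the match. The first lies in an intron of longer Foxa2 transcripts (chr2:148045465-148045714, minus strand), and its match starts 183 bases before the start site.
Foxa2: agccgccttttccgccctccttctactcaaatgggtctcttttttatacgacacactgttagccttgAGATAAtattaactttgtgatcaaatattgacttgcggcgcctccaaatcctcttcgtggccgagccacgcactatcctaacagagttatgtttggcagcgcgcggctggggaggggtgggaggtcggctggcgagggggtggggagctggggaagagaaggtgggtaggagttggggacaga
The next lies upstream of Hnf4a (chr2:163506607-163506810, plus strand), with its match starting 52 bases before the start site. Only the last 3 bases of this match lie in an annotated exon.
Hnf4a: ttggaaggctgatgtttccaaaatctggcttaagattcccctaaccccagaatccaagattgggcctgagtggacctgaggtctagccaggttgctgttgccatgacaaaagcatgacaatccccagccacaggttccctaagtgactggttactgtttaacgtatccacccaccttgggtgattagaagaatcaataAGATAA
The last lies upstream of Dab2 (chr15:6299539-6299787, plus strand), with its match starting 179 bases before the start site.
Dab2: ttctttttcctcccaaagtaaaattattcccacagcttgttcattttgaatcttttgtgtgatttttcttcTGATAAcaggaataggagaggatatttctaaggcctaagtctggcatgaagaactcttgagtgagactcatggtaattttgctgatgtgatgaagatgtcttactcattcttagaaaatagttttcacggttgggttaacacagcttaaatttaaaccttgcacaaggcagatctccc
A match of letters is a description and not a bound site. Binding was not measured in these files.

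Marker genes of the tissue were high under the visceral endoderm label. All 14 secreted products of that tissue in a list of markers were at 1 FPKM or more there, with Ttr at 693 FPKM and Afp at 467. Their summed level was 15609 FPKM, of which Spink3 alone gave 9863. The sum was 1611 FPKM in extraembryonic ectoderm, 74.4 in epiblast and 18054 in yolk sac. The visceral endoderm column also held genes known from the primitive streak: the 8 genes of a mesoderm and definitive endoderm list summed to 437 FPKM there, 153 in extraembryonic ectoderm and 19.7 in epiblast. Of these, Mixl1 was at 107 FPKM, Fgf8 at 73.1 and Gsc at 43.0. Cer1 and Gsc also belong to the anterior visceral endoderm, the defining mesoderm gene T was at 0.772 FPKM, and Mesp1 was listed at 0 in every column. Fgf5, a gene of the epiblast, was at 91.9 FPKM in visceral endoderm and 60.8 in epiblast, whereas Pou5f1 was at 0.334 and 79.4. Definitive endoderm also expresses Foxa2 and Sox17, and the part of such cells in their levels was not tested. The single epiblast sample, with T at 0.196 FPKM, Fgf8 at 9.28 and Mixl1 listed at 0, was low in streak genes. The yolk sac sample was sparse, with 4506 genes above 0, against 10744 to 15106 in the other stage columns. Xist, whose RNA covers the silenced X chromosome, had a paternal share of 89.8% to 100% in every stage column except epiblast (32.0%). In morulae it was 68.0% in control females and 23.2% in Xp XRRa KO females. With FPKM only and no counts, the read depth of each column is unknown.

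Levels of the 9 genes divided them by time of appearance. Before the blastocyst 4 of them were at 1 FPKM or more, both at the 8-cell stage and in morulae. The number was 7 in inner cell mass and 2 in trophectoderm. Of the E6.5 tissues visceral endoderm had 8, extraembryonic ectoderm 7 and epiblast 0, and the yolk sac had 4. Visceral endoderm was the highest of the 8 columns for 7 genes, and inner cell mass for Gata6 and Pdgfra. In these bulk columns, fewer cells of a type and less RNA per cell cannot be told apart.

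**Figure D1:**
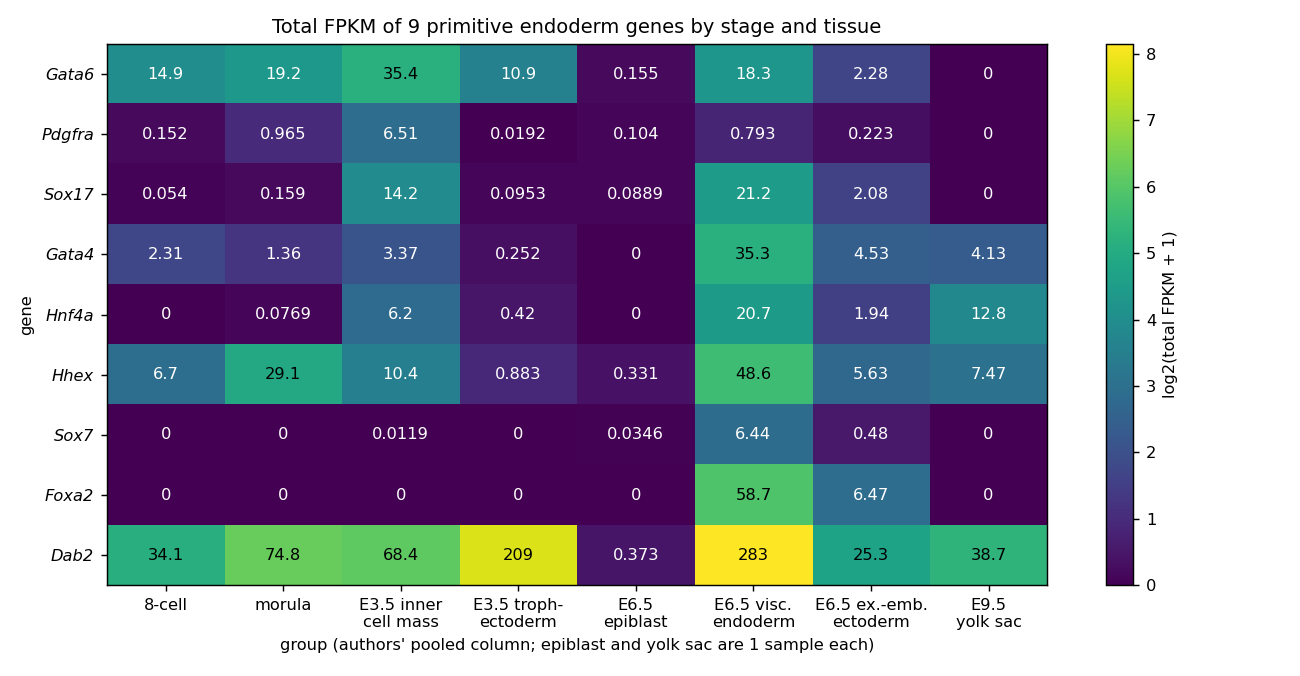
Total FPKM of the 9 genes (rows) in the 8 groups of the stage table (columns), with colour giving log2(total FPKM + 1) and each cell printing its value. Gata6, Dab2 and Hhex were above 5 FPKM already in 8-cell embryos, Sox17, Pdgfra and Hnf4a appeared in inner cell mass, and Foxa2 and Sox7 were near or at 0 until E6.5.

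Gata6, the earliest factor of the lineage, was present throughout preimplantation development. Its total was 14.9 FPKM at the 8-cell stage and 19.2 FPKM in morulae. In the blastocyst inner cell mass had 35.4 FPKM and trophectoderm 10.9. At E6.5 it was 0.155 FPKM in epiblast against 18.3 in visceral endoderm, with 2.28 in extraembryonic ectoderm, and it was listed at 0 in yolk sac. From the highest to the lowest, the order inner cell mass, morula, visceral endoderm, 8-cell and trophectoderm had no step as large as 2-fold on FPKM plus 1, although its ends differed by 1.61 on the log2 scale. The drop to extraembryonic ectoderm was the first larger step.

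Pdgfra, the receptor of PDGF-A and a surface marker of primitive endoderm, was concentrated in inner cell mass. It stood at 0.152 FPKM at the 8-cell stage, 0.965 FPKM in morulae, 6.51 FPKM in inner cell mass and 0.0192 FPKM in trophectoderm. In the later columns it was 0.104 FPKM in epiblast against 0.793 in visceral endoderm, with 0.223 in extraembryonic ectoderm and 0 in yolk sac. Inner cell mass was thus the only stage column in which Pdgfra reached 1 FPKM. Its ligand gene Pdgfa was at 23.2 FPKM in inner cell mass and 123 in trophectoderm, and at 2.48 in visceral endoderm and 25.4 in extraembryonic ectoderm. Ligand and receptor thus differed in opposite directions between inner cell mass and trophectoderm (log2 ratios of inner cell mass over trophectoderm of 2.88 for Pdgfra and -2.36 for Pdgfa). The other ligand genes Pdgfb, Pdgfc and Pdgfd and the second receptor gene Pdgfrb stayed below 1 FPKM in every column.

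Sox17, an HMG-box factor that follows Pdgfra in the lineage, was nearly absent before the blastocyst. The 8-cell column had 0.0540 FPKM and the morula column 0.159, before 14.2 FPKM in inner cell mass against 0.0953 in trophectoderm. At E6.5 it was 0.0889 FPKM in epiblast against 21.2 in visceral endoderm, with 2.08 in extraembryonic ectoderm, and it was listed at 0 in yolk sac. Inner cell mass and visceral endoderm stood next to each other at the top, less than 2-fold apart, and every other column was at least 2-fold lower.

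Gata4, the partner of Gata6 in maintaining the lineage, was low until E6.5. Its values were 2.31 FPKM at the 8-cell stage, 1.36 FPKM in morulae, 3.37 FPKM in inner cell mass and 0.252 FPKM in trophectoderm. Visceral endoderm had 35.3 FPKM, extraembryonic ectoderm 4.53, yolk sac 4.13 and epiblast 0. Only visceral endoderm was separated from its neighbour in the order by more than 2-fold.

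Hnf4a, the nuclear receptor of hepatic and visceral endoderm genes, was listed at 0 at the 8-cell stage and at 0.0769 FPKM in morulae. It was 6.20 FPKM in inner cell mass and 0.420 in trophectoderm. Visceral endoderm had 20.7 FPKM and yolk sac 12.8, less than 2-fold apart, while extraembryonic ectoderm had 1.94 and epiblast 0. Of the 8 genes considered, Hnf4a alone was not called lower in yolk sac than in visceral endoderm.

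Hhex, a homeobox factor of the anterior visceral endoderm, had an early maximum in the morula column of the stage table. The 8-cell column had 6.70 FPKM, the morula column 29.1, inner cell mass 10.4 and trophectoderm 0.883. At E6.5 it was 0.331 FPKM in epiblast against 48.6 in visceral endoderm, with 5.63 in extraembryonic ectoderm, and yolk sac had 7.47. Hhex was thus lower in both blastocyst tissues than in this morula column, and was highest in visceral endoderm. From the maternal allele alone the difference between inner cell mass and morula was not called (-0.99). Morulae of the separately normalized morula table had 11.5 to 14.3 FPKM, which cannot be compared directly with these levels.

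Foxa2 and Sox7 were the late genes. Foxa2, a forkhead factor of endoderm and axial mesendoderm, was listed at 0 in all 4 preimplantation columns, in epiblast and in yolk sac, and stood at 58.7 FPKM in visceral endoderm and 6.47 in extraembryonic ectoderm. Sox7, the relative of Sox17 that marks mature primitive endoderm, was listed at 0 at the 8-cell stage, in morulae, in trophectoderm and in yolk sac. It was at 0.0119 FPKM in inner cell mass. The epiblast had 0.0346 FPKM against 6.44 in visceral endoderm, with 0.480 in extraembryonic ectoderm. Visceral endoderm was the only column in which Sox7 reached 1 FPKM.

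Dab2 was the most abundant of the 9 genes in every column, and it was not restricted to endoderm. Its level was 34.1 FPKM at the 8-cell stage, 74.8 FPKM in morulae, 68.4 FPKM in inner cell mass and 209 FPKM in trophectoderm. Later it was 0.373 FPKM in epiblast against 283 in visceral endoderm, with 25.3 in extraembryonic ectoderm and 38.7 in yolk sac. Visceral endoderm and trophectoderm, both absorptive or fluid-transporting epithelia, were the 2 highest columns and less than 2-fold apart. In visceral endoderm Dab2 ranked 184 of the 8795 genes at 1 FPKM or more, and in trophectoderm 353 of 8356.

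Differences between columns are given as log2 ratios on total FPKM plus 1, and a gene was called at 5 FPKM or more in 1 of the columns and a ratio of 2 or more. From 8-cell embryo to morula 3 of the 9 genes had enough FPKM to be considered. Hhex (1.97) and Dab2 (1.11) were higher in morulae, where 31.9% of all genes were called higher, and Gata6 had 0.35. After scaling of the columns Dab2 was no longer called (0.70). The median of the 3 was 1.11, against 0.49 for all genes. Higher genes made up 83.7% of all calls, or 58.6% after each column was scaled by its median ratio to the others.

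The step from morula to inner cell mass asked which genes of the lineage came up in the blastocyst. Sox17 (3.72), Hnf4a (2.74) and Pdgfra (1.93) were higher in inner cell mass and Hhex (-1.40) was lower, out of 6 genes considered. Gata6 (0.85) and Dab2 (-0.13) did not reach 2-fold. Over all genes, 18.2% were called higher and 10.4% lower, with a median of 0.14 against 1.39 for the 6 genes. Higher genes were 63.7% of all calls, or 52.9% after scaling. Pdgfra and Hnf4a rest on levels between 5 and 10 FPKM, so that with a minimum of 10 FPKM, or from either allele alone, 1 gene was called higher.

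Into the trophectoderm the genes went different ways. Dab2 was higher than in morulae (1.47) and Hhex lower (-4.00), and Gata6 had -0.76. Of all genes 22% were called higher and 17.3% lower in this comparison.

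Between the blastocyst's tissues, most of the genes were higher in inner cell mass. Of 6 genes considered, 5 were higher in inner cell mass: Sox17 (3.80), Pdgfra (2.88), Hhex (2.60), Hnf4a (2.34) and Gata6 (1.61). Dab2 was lower (-1.60). The background was 13% of all genes higher and 11.8% lower, and the median was 2.47 for the 6 genes against 0.10 for all. Higher genes were 52.6% of all calls, or 41.0% after scaling. From the maternal allele alone 3 genes were called higher, from the paternal allele 2, and with a minimum of 10 FPKM 3. The inner cell mass column also held future epiblast cells, with Nanog at 157 FPKM and Pou5f1 at 336, and their part in the levels of the 9 genes was not tested. It held trophectoderm transcripts too. All 12 trophectoderm markers were at 1 FPKM or more in inner cell mass, with a summed level of 1474 FPKM against 323 in morulae and 6165 in trophectoderm. Against morulae 5 of 11 were higher in inner cell mass and 2 lower, with Tspan8 at 4.61, Krt8 at 4.11, Gata2 at 3.40 and Krt18 at 3.24, beside 1.93 to 3.72 for the lineage genes called higher. The part of trophectoderm cells in these values was not tested.

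The FGF and ERK genes that act on this choice were listed with 18 members, of which 9 were considered between inner cell mass and trophectoderm. Inner cell mass was higher for 5 and lower for 1. Fgf4, the ligand made by future epiblast cells, was at 25.0 FPKM in inner cell mass and listed at 0 in trophectoderm. The target genes Etv5 (5.60) and Spry4 were higher in inner cell mass; Spry4 had 5.13 FPKM there and was listed at 0 in trophectoderm. Dusp6, the phosphatase gene induced by ERK, did not follow them, with 24.6 FPKM in inner cell mass and 36.0 in trophectoderm (log2 ratio -0.53, not called). The receptor genes split: Fgfr1 had 17.4 FPKM in inner cell mass and 6.65 in trophectoderm, and Fgfr2 8.04 and 20.9 (log2 ratio -1.28). Between morula and inner cell mass, Dusp6 had a log2 ratio of 2.89, Fgf4 2.90 and Etv5 2.78, with 5 of 10 genes considered higher and 1 lower. For Dusp6 the ratio of trophectoderm over morula was 3.41.

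Basement membrane genes, whose products primitive endoderm secretes, were higher in inner cell mass than in morulae for 5 of 6 genes considered and lower for 1. They included the matrix protein gene Sparc (4.54), the laminin chain gene Lamb1 (2.31) and the collagen IV gene Col4a1 (2.23). Against trophectoderm 3 of 7 were higher, with Sparc at 3.64, Col4a1 at 2.70 and Col4a2 at 2.31, and Nid2 was lower (-2.31). Secreted visceral endoderm products were not yet part of this pattern: 3 of 14 were considered between morula and inner cell mass, with Apoe higher (3.67) and Apoa1 (-2.10) and Apoc2 (-1.11) lower.

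From inner cell mass to visceral endoderm all 9 genes could be considered. Visceral endoderm was higher for Gata4 (3.05), Sox7 (2.88), Hhex (2.12), Dab2 (2.03) and Hnf4a (1.59), and for Foxa2, which was listed at 0 in inner cell mass. Pdgfra was lower (-2.07), while Sox17 (0.54) and Gata6 (-0.92) did not reach 2-fold. These 6 of 9 higher genes stand beside 16.6% of all genes called higher, and the 1 lower beside 30.9% lower. The median was 2.03 over the 9 genes, against -0.47 for all genes. Over the 8 genes above 0 in both columns it was 1.81. Higher genes made up 35.0% of all calls, or 53.0% after scaling, which shifted the median of all genes by 0.43. Pdgfra was no longer called with a pseudocount of 5 (-0.99), with a minimum of 10 FPKM or from either allele alone, and Gata6 was called lower from the paternal allele (-1.02).

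**Figure D2:**
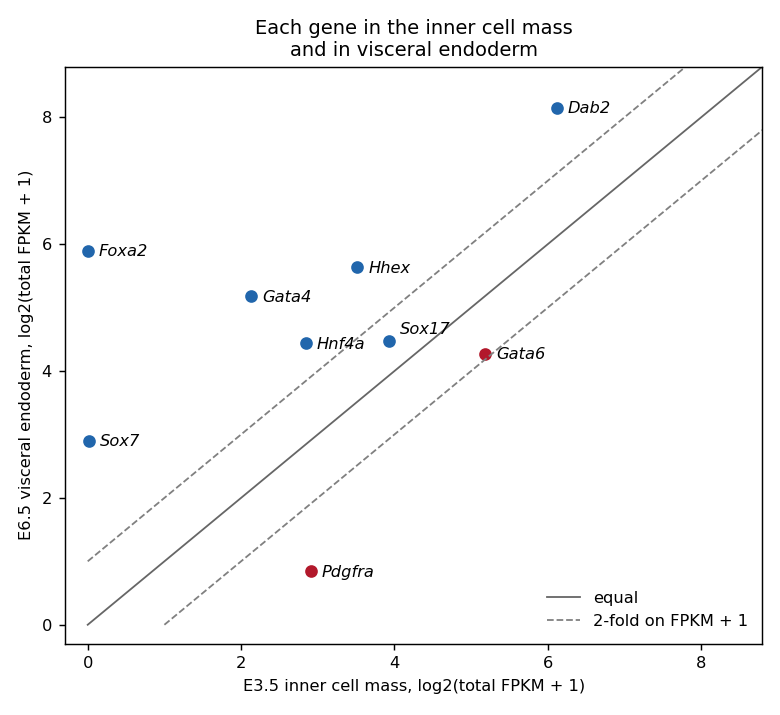
Each of the 9 genes by its level in E3.5 inner cell mass (x axis) and E6.5 visceral endoderm (y axis), both as log2(total FPKM + 1), with blue points higher and red points lower in visceral endoderm. Gata6 and Pdgfra lie below the line of equal levels, Sox17 lies within the dashed 2-fold lines above it, and the other 6 genes lie above the upper dashed line.

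At E6.5 visceral endoderm stood above the other tissues for the genes that could be considered. All 8 genes considered were higher in visceral endoderm than in epiblast (17.7% of all genes higher), than in extraembryonic ectoderm (9.77%) and than in the mean of both (10.9%). Pdgfra, at 0.793 FPKM or less in the 3 tissues, was not considered. Against epiblast, where no gene reached 1 FPKM, the 8 genes met the minimum only through visceral endoderm. A higher call was then the only possible one, so that count is no support. In extraembryonic ectoderm only Foxa2, Hhex and Dab2 reached 5 FPKM, and in the mean of both only Dab2 did. Against extraembryonic ectoderm the log2 ratios ran from 2.33 for Sox7 to 3.43 for Dab2, with a median of 2.87 against -0.49 for all genes. Higher genes were 26.8% of all calls in that comparison, or 54.3% after scaling, 48.7% or 60.6% against epiblast and 33.2% or 55.0% against the mean. Against epiblast, where Gata4, Foxa2 and Hnf4a were listed at 0, the 5 genes above 0 in both columns ran from 2.85 for Sox7 to 7.69 for Dab2.

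Epiblast was also far below its source tissue. All 6 genes considered were lower in epiblast than in inner cell mass, beside 28.3% of all genes, from Dab2 (-5.66) and Gata6 (-4.98) to Pdgfra (-2.77), with Hnf4a listed at 0. None of the genes reached 1 FPKM in epiblast, so each met the minimum only through inner cell mass. A lower call was then the only possible one, and the count of 6 is no support. This comparison rests on the single epiblast sample. From the paternal allele alone 3 of the genes were called lower.

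Relatives of the 9 genes in the same families were mixed. Of 12 relatives, 6 were considered between visceral endoderm and the mean of the other E6.5 tissues. The hepatic factor genes Foxa1 (3.31) and Foxa3 (2.83) were higher in visceral endoderm. Gata3 (-3.09) and Gata2, factors of trophoblast, were lower, with Gata3 at 0.183 FPKM in visceral endoderm and 18.2 in extraembryonic ectoderm. In the blastocyst, Gata3 (-2.01), Gata2 (-3.13) and Gata1 (-2.59) were all lower in inner cell mass than in trophectoderm, while Gata6 was higher (1.61). Gata5 was below 0.1 FPKM in every column. The GATA genes were thus divided between the tissues of both stages.

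Genes that work with Dab2 in uptake were higher in visceral endoderm for 6 of 9 considered. The endocytic receptor gene Cubn (4.50), its partner Amn (4.03), the motor gene Myo6 (3.56) and the receptor chaperone gene Lrpap1 (2.48) led, against a mean of epiblast and extraembryonic ectoderm. The clathrin and AP-2 genes differed among themselves: in extraembryonic ectoderm the clathrin heavy chain gene Cltc stood at 40.4% of its visceral endoderm level, and Clta, Ap2a1 and Ap2b1 at 118% to 138%. In trophectoderm, where Dab2 was at 209 FPKM, Cubn was at 0.174 FPKM and Amn at 0.759. Myo6 was also lower in trophectoderm, at 1.59 FPKM against 26.3 in visceral endoderm. The megalin gene Lrp2 went the other way, with 19.1 FPKM in trophectoderm and 9.996 in visceral endoderm. Lrpap1 did so too, with 195 and 96.3 FPKM. High Dab2 thus came with high Cubn and Amn in visceral endoderm and with low levels of both in trophectoderm. This did not hold for Lrp2 and Lrpap1.

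Extraembryonic ectoderm held a low level of nearly all of these genes. As a percentage of visceral endoderm, the 8 genes at 5 FPKM or more there lay between 7.46% for Sox7 and 12.8% for Gata4, with a median of 10.4%. Epiblast held none of them at 1 FPKM. Secreted visceral endoderm products had a median of 8.67% in extraembryonic ectoderm (13 genes, 5.47% to 19.1%), and anterior visceral endoderm genes 12.3% (8 genes, 8.78% to 14.2%). The median of all 5588 genes at 5 FPKM in visceral endoderm was 126%, and 136 of them (2.43%) fell within the range of the 8 genes. That range was set by the 8 genes themselves, which are counted among the 136. Transcripts made in extraembryonic ectoderm went the other way, such as Elf5 with 124 FPKM there and 0.260 in visceral endoderm. The 8 genes and the visceral endoderm products thus stood at similar percentages, and the part of visceral endoderm cells in the extraembryonic ectoderm samples was not tested.

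**Figure D3:**
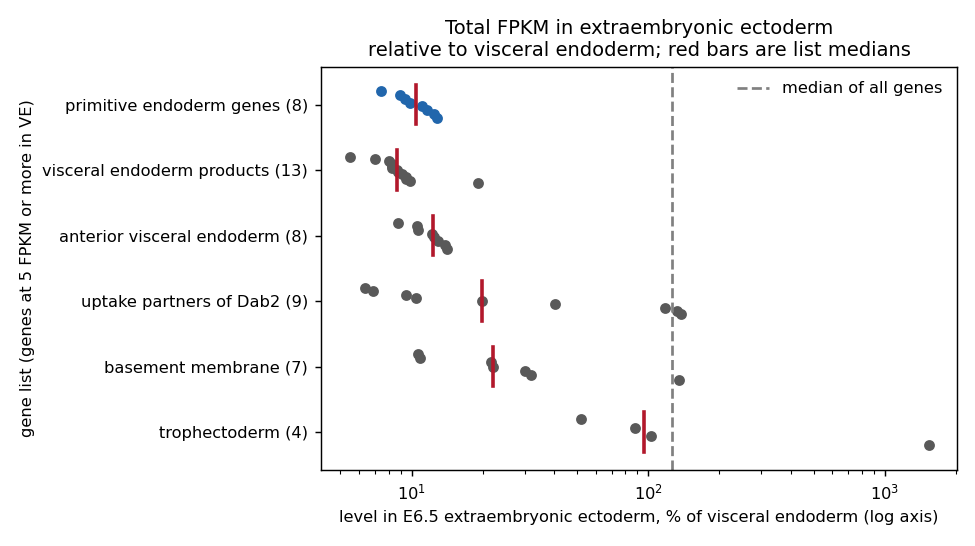
Level in E6.5 extraembryonic ectoderm as a percentage of visceral endoderm (log axis), 1 point per gene at 5 FPKM or more in visceral endoderm (VE), by gene list. The 8 primitive endoderm genes lie between 7.46% and 12.8%, close to visceral endoderm products and anterior visceral endoderm genes, while the dashed median of all genes is 126%.

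In yolk sac, 7 of 8 genes considered were lower than in visceral endoderm, beside 60.2% of all genes. Gata6, Sox17, Sox7, Foxa2 and Pdgfra were listed at 0. Abundant genes were listed at 0 in yolk sac too, such as Clta (208 FPKM in visceral endoderm) and Krt8 (287). The zeros of the 5 genes can therefore not be read as absence. Gata4 (-2.82), Hhex (-2.55) and Dab2 (-2.84) were lower, and Hnf4a had -0.65. Of 14 products of the tissue, 7 were higher in yolk sac, where 8.48% of all genes were called higher, and 4 were lower. Afp was at 3745 FPKM against 467 and Ttr at 1319 against 693. Of 15 blood and endothelial markers, 13 were listed at 0 in yolk sac, among them Hbb-y, Hba-x, Klf1 and Tal1. Hba-a1, Hba-x, Klf1 and Emcn were listed at 0 in every column of both tables, so their zeros in yolk sac cannot be read. Hbb-y was above 0 only in visceral endoderm, at 0.00777 FPKM. The embryonic globin gene Hbb-bh1 alone reached 1 FPKM, at 313 FPKM there and 0 in all other columns. The part of blood cells in the levels was not tested.

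The morula table served to ask about the effect of deleting XRRa. For the 9 genes, no gene was called in any of the 3 comparisons, each of which considered Gata6, Dab2 and Hhex, beside 7.8% of all genes called between Xp XRRa KO and control females. Gata6 was at 49.3 FPKM in control males, 38.3 in control females and 42.4 in Xp XRRa KO females. Dab2 had 116, 125 and 90.7 FPKM in the same order, and Hhex 13.2, 11.5 and 14.3. The log2 ratios of Xp XRRa KO over control females were 0.14 for Gata6, -0.46 for Dab2 and 0.29 for Hhex. Against control males (11.2% of all genes called) they were -0.21, -0.35 and 0.10, and between control females and males (5.74%) -0.36, 0.11 and -0.19. Both comparisons with the Xp XRRa KO column share that column. Higher genes made up 54.8% of all calls between Xp XRRa KO and control females, or 44.0% after scaling, and 47.6% or 62.4% between control females and males.

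The other genes were low in all 3 morula columns. Pdgfra was at 1.76 FPKM in control males, 0.681 in control females and 1.25 in Xp XRRa KO females. Hnf4a was at 0.879, 0.918 and 0.462 FPKM, Sox17 at 0.322, 0.772 and 0.0241, and Gata4 at 0.0958, 0.340 and 0.468. Sox7 stayed below 1 FPKM in all 3 columns, at 0.0723 FPKM in control males, 0 in control females and its highest level in Xp XRRa KO females, and Foxa2 was listed at 0 in all 3. These values are below the minimum for a call. Of the FGF and ERK genes, Dusp6 had a log2 ratio of 1.24 between Xp XRRa KO and control females and was called higher.

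**Figure D4:**
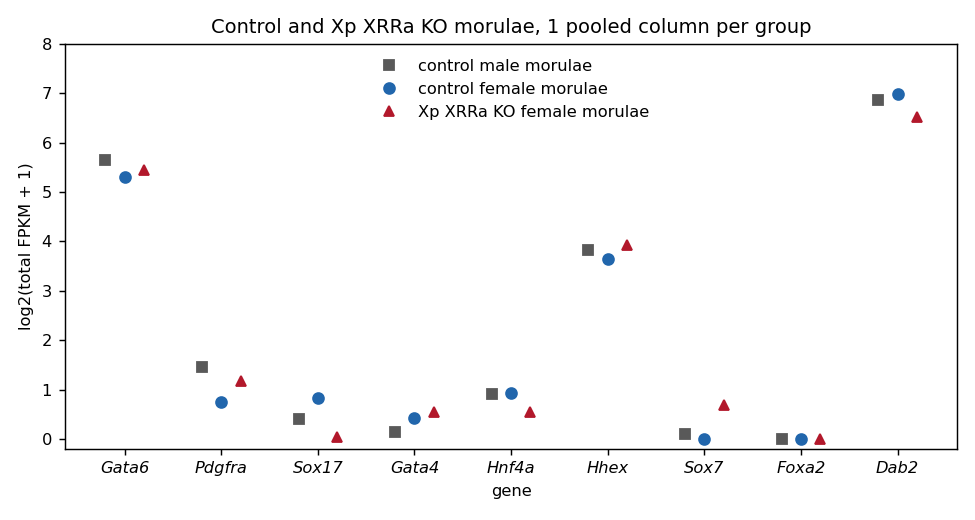
Level of the 9 genes in control male (squares), control female (circles) and Xp XRRa KO female (triangles) morulae, as log2(total FPKM + 1), 1 pooled column per group. Dab2, Gata6 and Hhex stood in that order in all 3 groups, and the other 6 genes were below 2 FPKM.

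The genes were read from both alleles wherever they were expressed. Over the stages and tissues, 36 paternal shares could be computed, and 35 of them lay between the 10th and 90th percentile of autosomal genes of the same column. The yolk sac range ran from 0% to 100%, since 44.2% of autosomal genes there were at exactly 0% or 100%. Its 4 shares could therefore not fall outside. Without the yolk sac there were 32 shares from 35.6% to 62.1%, and 31 of them lay within the autosomal range. The 11 shares of the morula table, from 39.4% to 63.3%, all lay within the autosomal range.

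In inner cell mass the shares were 54.3% for Gata6, 42.4% for Pdgfra, 54.1% for Sox17, 57.2% for Gata4, 62.1% for Hnf4a, 40.2% for Hhex and 52.3% for Dab2. The autosomal median there was 48.8%. In visceral endoderm 7 genes were between 46.1% for Dab2 and 52.5% for Gata4, around an autosomal median of 49.0%. Sox7 was the exception, with 35.6% at 6.44 FPKM, below the autosomal 10th percentile of 37.2%. Among 1750 autosomal genes between 5 and 10 FPKM in that column the 10th percentile was 38.5%. About 1 in 10 genes lie below that percentile by construction, so a single such value among the 32 outside the yolk sac is not read as a bias.

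**Figure D5:**
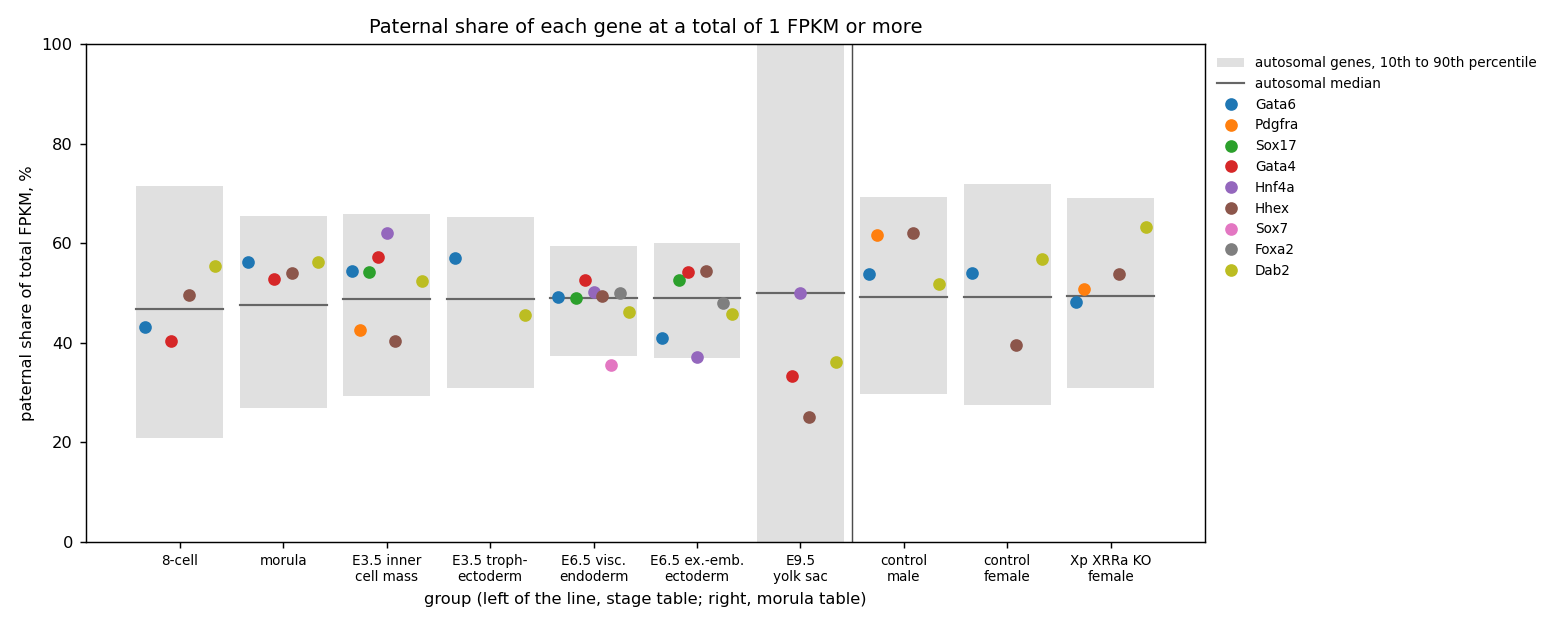
Paternal share of total FPKM (y axis, %) for each gene at 1 FPKM or more in each group (x axis), with grey boxes from the 10th to the 90th percentile of autosomal genes and a line at their median. Epiblast is left out because none of the genes reached 1 FPKM there. Sox7 in visceral endoderm, at 35.6%, is the only point outside its box. The yolk sac box spans 0% to 100%, so no point there can lie outside it.

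In comparisons involving the blastocyst and later tissues, ratios had the same sign from both alleles for all genes considered. This held for 9 genes between visceral endoderm and inner cell mass, 8 between visceral endoderm and each of the other E6.5 tissues, and 6 between inner cell mass and trophectoderm. Among earlier stages and in the morula table it did not hold throughout. From 8-cell embryo to morula 2 of 3 genes agreed in sign, Gata6 being at -0.01 from the maternal and 0.67 from the paternal allele. In the morula table the number was 1 of 3 between Xp XRRa KO and control females, 2 of 3 between Xp XRRa KO females and control males, and 1 of 3 between control females and males. Gata4 differed between visceral endoderm and inner cell mass by 2.86 from the maternal and 2.74 from the paternal allele, and Dab2 by 2.19 and 1.84. The alleles come from the same samples and are no replicates. Since all samples come from a single direction of the cross, the effects of strain and of parent of origin cannot be told apart.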

How the data were processed

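Smart-seq2 samples of mouse embryos were used as the authors deposited them: FPKM per gene and allele, computed before deposit, with 1 pooled column per allele and group. Per the submitters' processing notes the tools were Trim Galore 0.6.4, HISAT2 2.2.0 and StringTie 2.1.1 with mm9. For the split of reads between alleles, no method is given in the sources used here. The tables were normalized separately, so levels were compared within a table. A table of 13 EedmNull samples held X-linked genes only and was not used here. In all, 5 summary lines were dropped. Depth was unknown, and without replicate columns no test, SD or interval was computed.

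Totals summed both alleles. The paternal share needed a total of 1 FPKM or more. Calls needed 5 FPKM in 1 column and a ratio of 2 on FPKM plus 1, and understate the change of low genes. A gene at 5 FPKM or more in only 1 of the columns compared could not be called lower in that column. No ratio is printed against a level of 0, which silence or a lack of allele-informative reads can give. Genes named beyond the 9 were up to 4 of each list with the largest ratio. Fgfr1, Fgf5, Gata1, Gata5, Elf5, Lrp2, clathrin, streak, pluripotency and blood genes were named after their values were seen. Some members of the lists are not reported here by name. Smart-seq2 does not mark strand, and in GENCODE vM21 exons of Dab2, Gata6, Hnf4a, Pdgfra and Sox17 overlap genes on the other strand, whose reads cannot be told apart. Genes and lists were chosen with earlier results of these data known. Alternatives were the pseudocount, the minimum, column scaling and single alleles. The size rule was tested on simulated data. Chromosomes and promoters came from RefSeq (GRCm38.p6). Software was Python 3.11.15 with numpy 2.4.6, pandas 2.3.3 and matplotlib 3.10.9.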

Additional observations from a re-analysis of the deposited data

How the results depend on the processing

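Of 58 ratios called for single genes, all 290 values under the alternatives tried (other pseudocounts, column scaling and single alleles) kept their sign, but 126 of them moved by more than 1.5 times and 30 were no longer called. Among 80 such values of ratios that were not called, 7 changed sign. Sox7, at 6.44 FPKM in visceral endoderm, lost its calls from either allele alone, and Pdgfra lost its call between morula and inner cell mass with a pseudocount of 5 (0.95). Of the counts of called genes and the medians of paternal shares, 144 values under alternatives stayed within 1.5 times, or 5 points for shares, and 13 did not. After scaling of the columns, genes higher in morula than in 8-cell embryos numbered 1 in place of 2, without Dab2. Genes higher in inner cell mass than in morula numbered 1 in place of 3 with a minimum of 10 FPKM, from the maternal allele and from the paternal allele, and the gene lower there numbered 0 from the maternal allele. Genes higher in inner cell mass than in trophectoderm numbered 3 in place of 5 with a minimum of 10 FPKM and from the maternal allele, and 2 from the paternal allele. The gene lower in visceral endoderm than in inner cell mass, Pdgfra, numbered 0 with a pseudocount of 5, with a minimum of 10 FPKM and from the maternal allele, and from the paternal allele the gene was Gata6. Genes lower in epiblast than in inner cell mass numbered 3 in place of 6 from the paternal allele. A single allele carries only part of a gene's FPKM, so fewer genes reach the minimum. The median paternal share in control female morulae was 67.7% over 7 genes with a minimum of 0.1 FPKM, against 53.9% over 3. No paired analysis was possible because the authors pooled the samples of each group into 1 column, and for the same reason leaving out each replicate could not be run. Unknown depth limits what can be said of genes below 1 FPKM.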

Other observations

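For each of the 9 genes, the genes whose log2 levels followed it most closely over the 8 stage columns were listed, as a description over 8 points that share libraries. Foxa2 was followed by the anterior visceral endoderm genes Lhx1 (Pearson r 0.9997) and Cer1 (0.9995), both listed at 0 in every column except visceral endoderm and extraembryonic ectoderm, so these values rest on 2 columns above 0. Sox7 was followed by Eml1, the growth factor gene Vegfa and Igsf23 (0.99 each), for which visceral endoderm was likewise the only high column. Hnf4a was followed by Tfpi, which encodes a coagulation inhibitor (0.98), by Akap2 (0.98) and by Col4a1 (0.98), which shared its level in inner cell mass and yolk sac: Tfpi had 14.3 FPKM in inner cell mass, 30.2 in visceral endoderm and 23.0 in yolk sac. Sox17 was followed by Col4a2 (0.96), Herc3 (0.94) and the ephrin receptor gene Epha4 (0.93), and Epha4 had 18.0 FPKM in inner cell mass and 15.5 in visceral endoderm.

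Gata4 was followed by Cd59a (0.96), a complement regulator gene, and Amot (0.91), which stood at 338 FPKM in visceral endoderm. Gata6 was followed by Rbks (0.95), Mtus1 (0.94) and Lgals9 (0.92). Pdgfra was followed by Car9 (0.94) and Tcl1 (0.94), with inner cell mass the highest column for both (11.4 and 29.3 FPKM). Dab2 was followed by the lysophosphatidic acid receptor gene Lpar1 (0.94), with 35.1 FPKM in trophectoderm and 26.3 in visceral endoderm. Hhex had the loosest followers, led by the retinol dehydrogenase gene Rdh10 (0.91).

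The order of Hhex and Gata6 differed between the morula columns. In the stage table Hhex stood at 29.1 FPKM and Gata6 at 19.2 FPKM. In the morula table Gata6 stood above Hhex in all 3 groups, for example at 38.3 FPKM against 11.5 FPKM in control females. The ERK pathway gene Mapk3 was listed at 0 in all 11 columns of both tables, as were Dusp4 and Spry2, so the FGF and ERK list could not be read for these genes.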
